A study of Mus musculus with 12 samples.

Results

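The genes described here are 9 interferon response genes of the mouse: the transcription factor genes Stat2, Irf1, Irf7 and Irf9, the antiviral effector genes Ifit1, Ifit2 and Ifit3, the RNA sensor gene Ifih1 and the proteasome subunit gene Psmb8. They were taken by gene name from the array annotation, where Irf9 carries its older name Isgf3g, and make up 9 of the 27670 genes on the array, with 15 of its 41174 probes. RNA came from Leydig cells, the testosterone-producing cells between the seminiferous tubules, cut by laser from frozen testis sections of single adult male C57BL/6J mice and amplified in 2 rounds. The first group had received corn oil with di-(2-ethylhexyl) phthalate (DEHP), which softens plastics, by gavage each day for 21 days (daily dose 200 mg/kg), the second group plain corn oil (vehicle), and all were 21 weeks old. The labels speak of 4 mice per group; arrays of DEHP mice 1 and 4 and of vehicle mice 1, 2 and 4 were used, each DEHP mouse against each vehicle mouse on 2 two-colour Agilent arrays with the dyes exchanged, 12 arrays on 3 slides. The scanner software marked 45.4% to 54.4% of spots in red, and 35.5% to 46.1% in green, as well above background. The number of replicates is that of the mice, 2 against 3, and the number of arrays only limits the precision of the value of each mouse.

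Interferons are secreted proteins that cells release on sensing viral or other misplaced nucleic acid. Type I interferons bind the receptor of Ifnar1 and Ifnar2 and activate, through the kinases Jak1 and Tyk2, a complex with STAT2 and IRF9 that binds the interferon-stimulated response element (ISRE). Interferon gamma acts through Ifngr1 and Ifngr2 on genes that carry a gamma-activated site (GAS). IRF1 is a factor induced through that site, and IRF7 amplifies the transcription of type I interferon genes. The IFIT proteins form complexes that bind foreign RNA and hinder its translation, the product of Ifih1 (MDA5) senses long double-stranded RNA, and the product of Psmb8 replaces the subunit of Psmb5 in the immunoproteasome, which cuts peptides for class I presentation. The testis interstitium, where Leydig cells lie beside macrophages, can mount this response.

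All 9 genes had an annotated start site in RefSeq (assembly GRCm38.p6), 12 start sites in all, and 300 bases around each, 250 before and 50 after the start, were searched on both strands for an ISRE core, GAAANN followed by GAAA (in reverse complement TTTCNN followed by TTTC), and for a GAS, written TTCNNNGAA. The ISRE core lay in 4 of the 12 promoters (33.3%), those of Stat2, Ifit1, Ifit3 and Ifih1, against 1126 of all 32817 mouse promoters (3.43%). The GAS lay in 3 (25.0%), those of Irf1, Ifit2 and Psmb8, against 2722 of all promoters (8.29%), and no match of one motif overlapped one of the other in these 12 promoters. Among promoters of other interferon-stimulated genes the shares were 46.8% and 29.8%, so they are not particular to the 9 genes. Over all the related pathway lists they ran from 0% to 57.9% for the ISRE core and from 0% to 52.6% for the GAS. The 250 bases before the start sites of Ifit1 (chr19:34640639-34640888, plus strand), Ifit3 (chr19:34583279-34583528, plus strand) and Stat2 (chr10:128270248-128270497, plus strand) are shown because the first 2 hold a pair of ISRE cores each. Capitals mark the ISRE core.
Ifit1: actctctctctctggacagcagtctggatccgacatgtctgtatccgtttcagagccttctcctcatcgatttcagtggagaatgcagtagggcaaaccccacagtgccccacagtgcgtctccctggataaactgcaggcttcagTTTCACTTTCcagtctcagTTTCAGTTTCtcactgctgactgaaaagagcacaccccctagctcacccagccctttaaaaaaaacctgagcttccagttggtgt
Ifit3: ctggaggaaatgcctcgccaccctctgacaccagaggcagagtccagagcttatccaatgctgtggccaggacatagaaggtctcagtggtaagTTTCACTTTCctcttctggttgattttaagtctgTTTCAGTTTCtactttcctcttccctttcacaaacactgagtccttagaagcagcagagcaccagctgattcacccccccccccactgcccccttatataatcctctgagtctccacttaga
Stat2: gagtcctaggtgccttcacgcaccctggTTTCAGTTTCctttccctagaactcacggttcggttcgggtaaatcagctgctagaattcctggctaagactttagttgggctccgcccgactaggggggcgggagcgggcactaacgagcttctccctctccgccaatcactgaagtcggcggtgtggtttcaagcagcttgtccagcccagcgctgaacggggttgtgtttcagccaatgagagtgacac
The cores of Ifit1 began at -104 and -85 from the start site, those of Ifit3 at -156 and -122, and that of Stat2 at -222. The promoter of Ifih1 held its core after the start, from 33 to 42, and those of Irf1 and Psmb8 a GAS from -90 to -82 and from -97 to -89. These sites are shown with the bases beside them, the motif in capitals.
Ifih1: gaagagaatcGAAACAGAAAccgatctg
Irf1: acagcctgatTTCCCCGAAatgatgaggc
Psmb8: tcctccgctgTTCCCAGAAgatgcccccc
The match of letters is a description of these windows only.

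A probe was kept if at least 50% of a mouse's arrays read it as well above background, in 2 or more mice. This held for 8 of the 15 probes, so that 7 of the 9 genes could be tested. Irf7 and Ifit2 could not. The probe of Irf7 (mm7 chromosome 7, 137682028 to 137682378) was well above background on 0 of 12 readings of DEHP RNA and 1 of 12 readings of vehicle RNA. Ifit2 has probes at mm7 chromosome 19, 34277058 to 34277117 and 34275121 to 34275180; the first was at 0 of 12 in both groups, and the second at 1 of 12 for DEHP and 0 of 12 for vehicle RNA. These probes gave no fold change, and the level of both genes is not known from these arrays. The probes of Irf1, Irf9, Ifit3 and Ifih1 that stand for their genes were well above background on all 24 channel readings. Stat2 was so on 10 of 12 readings of DEHP RNA and 12 of 12 of vehicle RNA, and Ifit1 and Psmb8 each on 11 of 12 and 10 of 12. The readings that failed lay in DEHP mouse 4 for Stat2, and in DEHP mouse 4 and vehicle mouse 1 for Ifit1 and Psmb8, as the map of detection by probe and mouse shows.

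**Figure D1:**
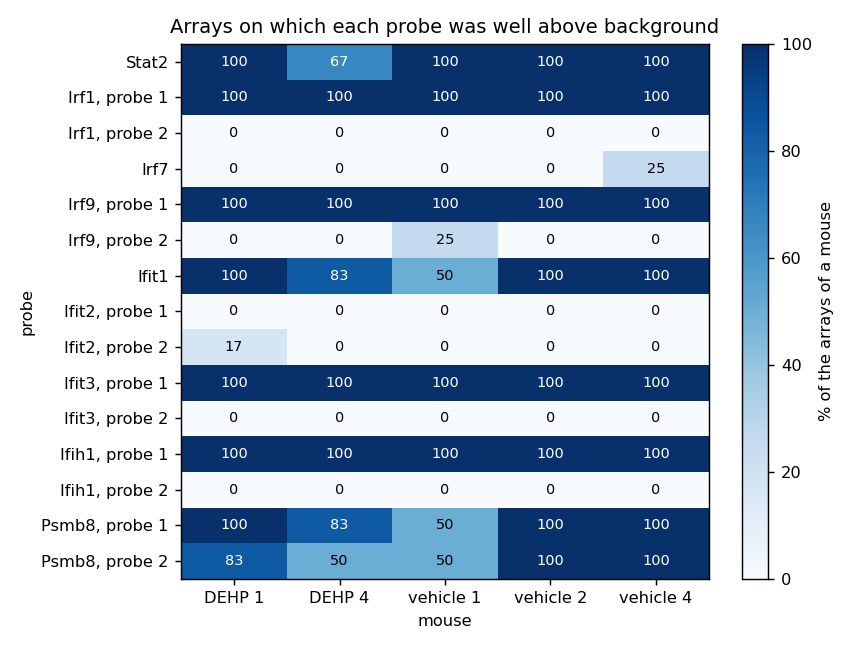
Share of the arrays of each mouse, in percent, on which each of the 15 probes was well above background (6 arrays per DEHP mouse and 4 per vehicle mouse). Rows are probes and columns are the DEHP mice, then the vehicle mice; Irf7, Ifit2 and the other probes of Irf1, Irf9, Ifit3 and Ifih1 reached 25% at most.

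For 4 genes a second probe gave another answer. The second probe of Irf1, of Ifit3 and of Ifih1 was not well above background on any array, and that of Irf9 only on 1 of 12 readings of vehicle RNA. The probes of Irf1 lay at mm7 chromosome 11, 53733970 to 53734029 (probe 1, detected) and 53730701 to 53730846 (probe 2), those of Irf9 at chromosome 14, 50476767 to 50476826 and 50473491 to 50473701, those of Ifih1 at chromosome 2, 62528113 to 62528172 and 62537605 to 62539752, and those of Ifit3 at chromosome 19, 34289919 to 34289978 and 34313887 to 34313946. Each probe is 60 bases long, so that the spans of 146, 211 and 2148 bases of the second probes of Irf1, Irf9 and Ifih1 cross stretches that the probe does not contain. In the direction in which the files list the positions, the detected probe of these 3 genes lies after the other one. The first 30 bases of each of these probes, from the scanner files, are shown so that the pairs can be told apart.
Irf1 probe 1: ctcttgactatctattagaaacgccaccta
Irf1 probe 2: gccgagacactaagagcaaaaccaagagga
Irf9 probe 1: aataaaatttagctgggtgaggtattacat
Irf9 probe 2: tcacctgagagggaagaaaatatggaaaat
Ifih1 probe 1: gatctcgggctacataaaattaagaaaact
Ifih1 probe 2: tgctgatgacaccagagaaaatccatttaa
Ifit3 probe 1: caattttccagtcagcaaacctcattacta
Ifit3 probe 2: gtttctcagaaatgaaaggtcaatcgagaa
The GC content of probes 1 and 2 was 43.3% and 51.7% for Irf1, 38.3% and 45.0% for Irf9, 35.0% and 35.0% for Ifih1, and 40.0% and 40.0% for Ifit3. Mice carry a close copy of Ifit3 beside it, and which copy each probe detects was not tested. The 2 probes of Psmb8 both passed, and DEHP minus vehicle was -0.02 on the brighter one and -0.10 on the other, on the log2 scale.

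The main question of the design was whether DEHP changed the RNA level of these genes in the captured material. None of the 7 tested genes differed between DEHP and vehicle mice beyond the spread between mice, and the DEHP and vehicle mice overlapped for every one. The values that follow are log2 levels by mouse, with the mean over the 5 mice set to 0 for each gene. In bulk material of this kind, fewer cells of a type and less RNA per cell cannot be told apart.

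Among the transcription factors, Stat2 (probe at mm7 chromosome 10, 127793622 to 127793681) was at 0.24 and -0.17 in DEHP mice 1 and 4, against -0.22, 0.25 and -0.10 in vehicle mice 1, 2 and 4. Both groups had a high mouse and a low one, and their ranges overlapped. The group means were 0.03 ± 0.29 for DEHP and -0.02 ± 0.24 for vehicle (SD, n = 2 and 3 mice), a difference of 0.05 (SE 0.25; 95% interval -0.56 to 0.67). Irf9, which gives the complex its DNA-binding part, was at 0.39 and -0.60 in DEHP mice 1 and 4, against -0.42, 0.37 and 0.25 in vehicle mice 1, 2 and 4. DEHP mouse 4 was the lowest and DEHP mouse 1 the highest of all 5 mice, and the groups overlapped. The difference was -0.17 (SE 0.39; -1.15 to 0.80). Irf1 was at 0.01 and 0.18 in DEHP mice 1 and 4, against -0.72, 0.11 and 0.41 in vehicle mice 1, 2 and 4. Its 2 DEHP mice lay close together between vehicle mice 1 and 4. The difference was 0.16 (SE 0.37; -0.74 to 1.07).

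Among the effectors, Ifit3 spread widely among the DEHP mice. It was at 0.69 and -0.58 in DEHP mice 1 and 4, against -0.42, -0.17 and 0.48 in vehicle mice 1, 2 and 4. The 2 DEHP mice held the highest and the lowest value, so that all vehicle mice lay between them, and the difference was 0.09 (SE 0.46; -1.05 to 1.23). Ifit1 (probe at mm7 chromosome 19, 34350610 to 34350669) was at 0.25 and -0.12 in DEHP mice 1 and 4, against -0.42, 0.20 and 0.10 in vehicle mice 1, 2 and 4. Vehicle mouse 1 was the lowest, the groups overlapped, and the difference was 0.11 (SE 0.27; -0.57 to 0.78). It was 0.20 with an offset of 10 in the background correction and 0.51 with the scanner software's own processed signals. The sensor gene Ifih1 was at 0.55 and -0.71 in DEHP mice 1 and 4, against -0.39, 0.16 and 0.39 in vehicle mice 1, 2 and 4. As for Ifit3, the DEHP mice held both ends of the range, and the difference was -0.13 (SE 0.44; -1.23 to 0.96). Psmb8 (brighter probe at mm7 chromosome 17, 32280725 to 32281049) was at 0.17 and -0.19 in DEHP mice 1 and 4, against -0.31, -0.18 and 0.52 in vehicle mice 1, 2 and 4. Both DEHP mice lay between vehicle mice 1 and 4, and the difference was -0.02 (SE 0.31; -0.80 to 0.76).

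**Figure D2:**
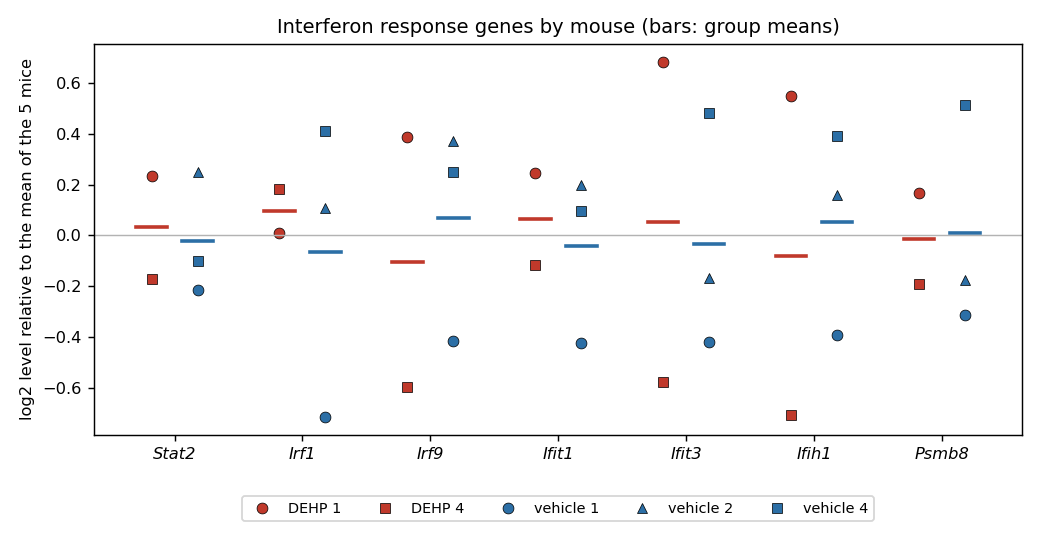
Log2 level by mouse, with the mean over the 5 mice at 0 (y axis), for the 7 tested genes (x axis), DEHP mice in red left of vehicle mice in blue, with a bar at each group mean. The points of the groups overlap for every gene, and DEHP mice 1 and 4 stand farthest apart for Ifit3 (0.69 and -0.58) and Ifih1 (0.55 and -0.71).

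In limma on the 5 mouse values with Benjamini-Hochberg adjustment over all genes, 0 of the 7 genes passed an adjusted p of 0.05 (adjusted p 1.00 for each), as did 0 of all 15830 genes (0%). At an unadjusted p under 0.05 there were 0 of the 7, whose p ran from 0.675 to 0.946, against 136 of all genes (0.859%). The groups did not overlap for 0 of the 7, against 9.17% of all genes. An exact two-sided permutation test of 2 against 3 mice cannot go below p = 0.1. The differences had a median of 0.05, with 4 above 0 and 3 below, and that of all genes was -0.01. The 95% intervals, drawn in the plot of group differences, differed in width between genes. They were widest for Ifit3 (-1.05 to 1.23) and Ifih1 (-1.23 to 0.96) and narrowest for Stat2 (-0.56 to 0.67). For each gene, log2 changes within its own interval are not excluded. The direction of each of the 7 differences turned when 1 mouse was left out, and the median ran from -0.20 without DEHP mouse 1 to 0.29 without DEHP mouse 4.

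**Figure D3:**
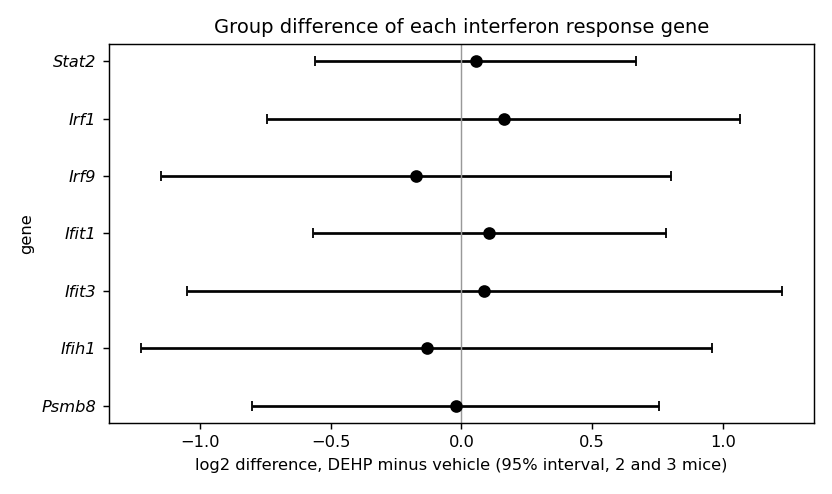
Log2 difference, DEHP minus vehicle, with its 95% interval from limma (x axis) for the 7 tested genes (y axis), from 2 DEHP and 3 vehicle mice. Every interval holds 0, and they are narrowest for Stat2 (-0.56 to 0.67).

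Each array sets 1 DEHP mouse against 1 vehicle mouse on the same slide, so the difference can also be read slide by slide, with values and no test. On slide 1, with vehicle mice 1 and 2 and DEHP RNA in Cy5, the median of the 7 genes was 0.13, and on slide 2, with the same mice and DEHP RNA in Cy3, 0.17. On slide 3, with vehicle mouse 4 in both orientations, it was -0.35. Vehicle mouse 4 lay on slide 3 alone, so that mouse and slide cannot be told apart. The 2 arrays of a pair of mice gave log2 ratios of the same sign in 35 of 42 cases (7 genes, 6 pairs), with a median gap of 0.14. The largest gap, 0.70, was that of Psmb8 in DEHP mouse 4 and vehicle mouse 2. Irf1 stood off the diagonal in all 6 pairs, higher by 0.17 to 0.42 with DEHP RNA in Cy5; the fitted dye effect was 0.15 and cancels over the orientations.

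**Figure D4:**
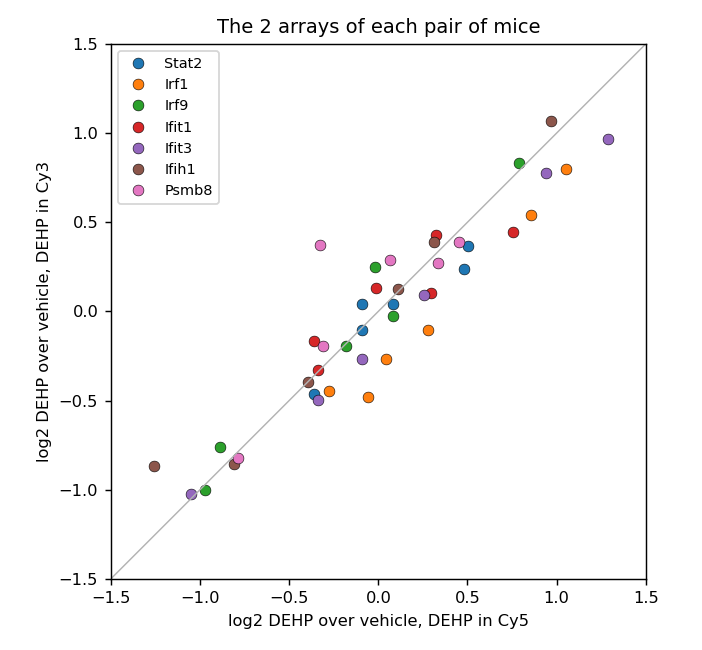
Log2 ratio of DEHP over vehicle on the array with DEHP RNA in Cy5 (x axis) and on the array of the same 2 mice with DEHP RNA in Cy3 (y axis), for 7 genes and 6 pairs of mice; the line marks equal values. Ifit3 and Ifih1 reach both ends of the diagonal, from about 1 to about -1, and Irf1 lies below the line throughout.

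Comparisons of single mice were tested on the 12 arrays with limma, so their p-values measure the spread between arrays and compare extracts of single mice, not conditions. Between the 2 DEHP mice, 7 of 7 genes passed, where 77.4% of all genes did. In DEHP mouse 4 relative to DEHP mouse 1, 6 were lower (41.1% of all genes were) and 1 was higher (36.3%). Ifit3 was lower by 2.40-fold (log2 -1.26, SE 0.05; adjusted p = 5.02e-10) and Ifih1 by 2.39-fold (-1.26, SE 0.06; 7.58e-09). Irf9 was lower by 1.98-fold (-0.98, SE 0.05; 7.19e-09), and Stat2, Ifit1 and Psmb8 by 0.41, 0.36 and 0.36 on the log2 scale. Irf1 alone of the 7 was higher in DEHP mouse 4, by 0.17 (SE 0.04; adjusted p = 0.00375). The arrays' scaling matters here: centring each array on its median in place of loess raised the median difference of all genes by 0.35, to 0.30, and then 4 of the 7 passed, without Stat2, Ifit1 and Psmb8 (adjusted p 0.109, 0.174 and 0.202). With that centring Irf1 was at 0.61, Irf9 at -0.54, Ifit3 at -0.81 and Ifih1 at -0.89. Relative to the median of all genes, 6 of the 7 were lower and Irf1 was higher under both scalings, Ifit3 by -1.22 and -1.11 and Irf1 by 0.22 and 0.31.

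Among the vehicle mice, mouse 1 was the low one. Relative to vehicle mouse 2, 6 of 7 genes were lower in vehicle mouse 1 (38.0% of all genes were, 33.0% were higher, 71.0% in all), by 0.25 for Ifit3 to 0.83 for Irf1 on the log2 scale, and Psmb8 was at -0.14 (adjusted p = 0.333). Relative to vehicle mouse 4, 6 were lower in vehicle mouse 1 (35.3% of all genes, with 33.5% higher and 68.8% in all), by 0.52 for Ifit1 to 1.13 for Irf1, which is 2.19-fold, and Stat2 was at -0.12 (0.101). With median centring Stat2 was at -0.32 in that comparison and passed (adjusted p = 0.0159), so that 7 of 7 were lower. Both comparisons had all 7 genes below the median of all genes under either scaling. The arrays of vehicle mice 1 and 2 were on slides 1 and 2, those of vehicle mouse 4 on slide 3. In comparisons with vehicle mouse 4, mouse and slide cannot be told apart. Vehicle mice 2 and 4 differed less evenly: in vehicle mouse 2, Stat2 was higher by 0.35 (29.1% of all genes were higher), and Irf1, Ifit3, Ifih1 and Psmb8 were lower by 0.30, 0.65, 0.23 and 0.69 (28.3% lower, 57.4% in all). Irf9 and Ifit1 were at 0.12 and 0.11 in that comparison, did not pass, and turned to -0.06 and -0.04 with median centring. With that centring Stat2 was at 0.23 in the same comparison and no longer passed (adjusted p = 0.0916).

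Across the 5 mice the 7 genes tended to move together. Of their 21 pairwise correlations, 21 were above 0, from 0.14 for Stat2 and Psmb8 to 0.96 for Irf9 and Ifih1, with a median of 0.70 (Pearson, n = 5 mice that share the arrays, no test). The share of correlations above 0 among pairs of all genes was not computed, so this is not shown to be particular to the 7 genes. The median of the 7 genes was 0.25 and -0.19 in DEHP mice 1 and 4, against -0.42, 0.16 and 0.39 in vehicle mice 1, 2 and 4. Outside the gene lists used here, the 5 genes most like that median profile over the 5 mice, among those with an SD of at least 0.3, were Armcx3, Cdip1, Rpl39, Marchf8 and Rapgef2, with r from 0.998 to 0.999. Over 5 points these correlations are a description only.

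The rest of the pathway was read from lists of its genes. Of the interferon ligands, 14 of the 15 on the array did not pass the filter, among them Ifnb1, which was not well above background on any array. Ifng, the type II interferon, passed through DEHP mouse 1 and vehicle mouse 4: it was at 0.78 and -0.32 in DEHP mice 1 and 4, against -0.34, -0.32 and 0.20 in vehicle mice 1, 2 and 4, and well above background on 0% of the arrays of DEHP mouse 4 and of vehicle mouse 2. Its groups overlapped, and the difference was 0.38 (SE 0.39). With DEHP mouse 1 left out it was -0.17, with DEHP mouse 4 left out 0.93, and 1.07 with the scanner software's own processed signals.

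All 9 receptor and kinase genes were tested, and 0 passed the adjusted p, with 3 above 0 and 6 below. Ifnar2, a chain of the type I receptor, was at 0.61 and -1.03 in DEHP mice 1 and 4, against -0.62, 0.30 and 0.75 in vehicle mice 1, 2 and 4. This is the same order of high and low mice as for Ifih1, but with vehicle mouse 4 highest. Ifnar1, the other chain, differed by -0.12 (SE 0.21), Ifngr1 by -0.17 (SE 0.45), Ifngr2 by -0.30 (SE 0.23) and Il10rb, the shared chain of the type III receptor, by -0.04 (SE 0.47). The kinase genes Jak1, Jak2 and Tyk2 differed by 0.16, -0.19 and 0.30. Leaving out 1 mouse moved Jak1 between -0.39 and 0.52 and Jak2 between -0.34 and -0.036. In the authors' deposited table Jak1 was at -0.17, and with the scanner software's own processed signals Tyk2 was at 1.095. Ifnlr1, the specific chain of the type III receptor, was at 0.44 and 0.18 in DEHP mice 1 and 4, against -0.09, -0.21 and -0.31 in vehicle mice 1, 2 and 4. Its groups did not overlap, and the difference was 0.51 (SE 0.20; unadjusted p = 0.0455, adjusted p = 1.00 in limma), on a probe well above background on 75% of the arrays of each vehicle mouse. With the scanner software's own processed signals it was 1.37.

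Of the other STAT and IRF factors, 10 of 12 were tested, 3 above 0 and 7 below, with none past the adjusted p. Stat3, which mediates signals of the interleukin 6 family, had both DEHP mice, at 0.45 and 0.47, above the vehicle mice at -0.88, 0.24 and -0.27, a difference of 0.76 (SE 0.35; unadjusted p = 0.0749) that leaving out 1 mouse moved between 0.48 and 1.03. Irf8, a factor of myeloid cells, differed by -0.68 (SE 0.60), and by -1.26 to -0.11 with 1 mouse left out. Of the 38 genes outside the 7 whose difference was followed in this way, 24 changed direction when some mouse was left out, as did 7 of the 7. The negative regulators had 10 of 13 tested, 3 above 0 and 7 below, with Socs3 at -0.34 (SE 0.56) and Irf2bp2 at -0.27 (SE 0.43).

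Of 54 other interferon-stimulated genes on the array, 18 did not pass the filter, including Isg15, Oas1a, Oas2, Oas3, Mx1 and Eif2ak2, classic targets of type I interferon. Other targets of this kind passed it, named after their values were seen. Oasl2 and Mx2 were well above background on all arrays of every mouse. Rsad2 was so on a share of 0.67 of the arrays of DEHP mouse 4 and on a larger share in the other mice. Among the 36 tested, 0 passed the adjusted p, 12 lay above 0 and 24 below, and the median difference was -0.08, against -0.01 for all genes. In 2 of the 36 both DEHP mice lay above all vehicle mice, where 3.95% of all genes do, and in 0 both lay below, where 5.22% do. One of the 2 was Cmpk2, a mitochondrial nucleotide kinase, at 0.17 and 0.20 in DEHP mice 1 and 4, against 0.04, -0.29 and -0.12 in vehicle mice 1, 2 and 4 (difference 0.31, SE 0.20). The other was the membrane protein gene Ifitm1, whose difference was 0.09 (SE 0.18) and which is named after its values were seen. Tgtp1, an interferon-induced GTPase, differed by -0.42 (SE 0.33). Between single mice the same list was lower in DEHP mouse 4 than in DEHP mouse 1 for 30 genes and higher for 3, where 41.1% of all genes were lower and 36.3% higher. With median centring, tried for this list after seeing the data, 21 were lower and 5 higher, where 16.3% of all genes were lower and 54.7% higher. With loess, the list was led by Ifi27, a gene for a small membrane protein, at -1.87. The median of the list per mouse, also with loess, was 0.22 and -0.35 in DEHP mice 1 and 4, against -0.39, 0.15 and 0.29 in vehicle mice 1, 2 and 4. This is the order of mice that the median of the 7 genes had.

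The nucleic acid sensors and adaptors had 9 of 15 tested, 5 above 0 and 4 below, and 0 passed. Ddx58, which encodes the RNA sensor RIG-I, was at 0.78 and -0.71 in DEHP mice 1 and 4, against -0.36, 0.02 and 0.28 in vehicle mice 1, 2 and 4, with all vehicle mice between the DEHP mice, as for Ifih1. Sting1 and Mavs, adaptors of the DNA and RNA sensors, differed by 0.04 (SE 0.41) and -0.34 (SE 0.43), and the DNA sensor gene Cgas by 0.44 (SE 0.31). Of the immunoproteasome and class I genes 10 of 12 were tested, 6 above 0 and 4 below, and 0 passed. B2m, the invariant light chain of class I molecules, was at 0.70 and -1.15 in DEHP mice 1 and 4, against -0.78, 0.24 and 1.00 in vehicle mice 1, 2 and 4, and Psme1, a proteasome activator subunit, at 0.60 and -0.86 against -0.71, 0.56 and 0.41. In both, DEHP mouse 4 and vehicle mouse 1 were lowest and the groups overlapped. Psmb5, the constitutive counterpart of Psmb8, was at 0.09 and -0.01 in DEHP mice 1 and 4, against 0.12, -0.36 and 0.16 in vehicle mice 1, 2 and 4, so that vehicle mouse 2 was its low mouse.

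Markers of several cell types, though not of all, moved between the same mice. Leydig cell markers, 10 of 10 tested, had medians of 0.67 and -0.73 in DEHP mice 1 and 4. Their medians in vehicle mice 1, 2 and 4 were -0.46, 0.22 and 0.40. The Leydig cell hormone gene Insl3, the brightest of the list, was at 0.91 and -1.29 in DEHP mice 1 and 4. It was at -1.02, 0.50 and 0.90 in vehicle mice 1, 2 and 4. Not every Leydig cell marker had this order of mice. Nr5a1 was highest in vehicle mouse 1 (0.12) and Hsd17b3 lowest in vehicle mouse 2 (-0.37), both named after their values were seen. Macrophage markers, 19 of 20 tested, had medians of 0.40 and -0.24, against -0.41, 0.01 and 0.44 in the same mice, and the log2 of their summed level was 17.2 and 16.2 in DEHP mice and 16.2 to 17.3 in vehicle mice. Endothelial markers, 8 of 10 tested, had medians of 0.25 and -0.22, against -0.55, 0.28 and 0.025 in the same mice. Peritubular myoid markers (7 tested) were at 0.01 and -0.45, against -0.12, 0.44 and 0.19, and the 2 blood markers at 0.07 and -0.37, against -0.34, 0.33 and 0.30. In each of these 5 marker lists, as in the median of the 7 genes, the lowest medians were those of DEHP mouse 4 and vehicle mouse 1. Spermatid markers, 12 of 12 tested, ran the other way, at 0.01 and 0.83 in DEHP mice 1 and 4, against 0.21, -0.62 and -0.45 in vehicle mice 1, 2 and 4, and 12 of 12 had a positive difference, with no overlap of groups for 2, the sperm chromatin genes Prm1 and Tnp1, where 3.95% of all genes have both DEHP mice above and 7653 of 15830 lie above 0. Of the 10 Sertoli cell markers, all tested, 9 lay below 0, and in 3 (Sox9, Cst9 and Aard) both DEHP mice lay below all vehicle mice, where 5.22% of all genes do; their medians were -0.17 and -0.07 in DEHP mice 1 and 4, against 0.11, 0.01 and 0.10 in vehicle mice 1, 2 and 4. Of 5 markers of B cells and plasmacytoid dendritic cells 2 were tested, with medians of 0.11 and -0.10, against -0.04, -0.12 and 0.15 in the same mice. Of the T and NK cell markers 7 of 12 did not pass the filter (Cd3g, Cd2, Cd4, Gzma, Gzmb, Ncr1 and Klrb1c), and the summed log2 level of the other 5 was 9.02 to 9.12 in DEHP mice and 8.98 to 9.13 in vehicle mice. Both DEHP mice also lay above all vehicle mice for 1 macrophage marker and 1 marker of B cells and plasmacytoid dendritic cells. Both lay below for 1 T and NK cell marker. The single markers named above for groups that do not overlap are named after their values were seen. Every spermatid and Sertoli cell marker passed the filter, as did every Leydig cell marker, so passing it does not set the Leydig list apart. Passing is not full detection. For the Leydig cell marker Nr5a1, the detected share of arrays ran from 0.17 (DEHP mouse 1) to 0.75 (vehicle mouse 2). The log2 of the summed level was 15.7 to 17.3 for the Leydig list over the 5 mice. It was 18.3 to 19.5 for the spermatid list, which lay above the Leydig list in every mouse, and 15.1 to 15.9 for the Sertoli list. The share of each cell type in the RNA was not tested, nor was the part of these cell types in the differences between mice.

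**Figure D5:**
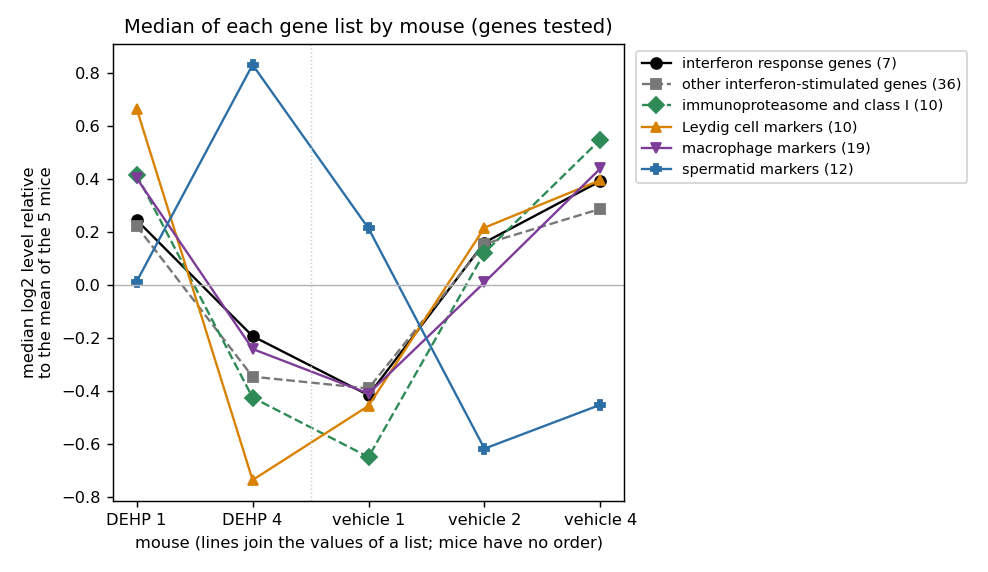
Median log2 level of the genes of a list, with the mean over the 5 mice at 0 (y axis), in DEHP mice 1 and 4 and vehicle mice 1, 2 and 4 (x axis); lines join the points of a list, and the number of genes tested stands in the legend. The interferon, class I, Leydig cell and macrophage lists are low in DEHP mouse 4 and vehicle mouse 1, where the spermatid list is high.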

How the data were processed

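The members and the gene lists were chosen with earlier results of these data known. Two-colour arrays of 5 mice were read from the deposited scanner files, which give spot intensity that is not normalized between arrays; per the file headers the software was Feature Extraction 9.5.1.1. The scanner's log10 ratio, per the file headers, served to check directions. Flags of each spot, and probe positions on mm7, are those the authors deposited. The deposited value table holds the authors' log2 ratios for 13669 spots, running as DEHP over vehicle (r 0.915 to 0.993 with the scanner ratios, column medians -0.06 to 0.00); its filter and normalization are unknown, and it was an alternative only. The tool limma is named, without a version, in the submitters' processing notes.

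The analysis used limma 3.58.1 in R 4.3.3. Normexp with an offset of 50 corrected the background, loess (control spots given weight 0) normalized each array, and outlier spots (0.332% to 0.604%) were left out. The offset makes differences of dim probes (Stat2, Ifit1, Psmb8) smaller. Least squares on the 12 log ratios gave 5 mouse values and a dye effect per probe. The detection filter given above kept 21198 of 41174 probes, and the brightest stood for its gene (15830 genes). For the groups, lmFit and eBayes took the 5 mouse values, which leaves 3 residual degrees of freedom before moderation; for single mice they took the 12 arrays. Adjusted p values are Benjamini-Hochberg over all genes. The functions were tested on simulated arrays. Named genes are all members, the receptors and kinases, Psmb5, and from each list those of lowest p or largest difference between single mice; some genes that this rule takes are not reported here or only within counts. Insl3 was named as the brightest Leydig cell marker. No marker list had a gene past the threshold between the groups. Alternatives covered background, normalization, filter, probes, slide, left-out mice, replicate block, unit of replication and the authors' table. Promoter sequences are RefSeq's (GRCm38.p6) and were not joined to mm7 positions.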

Additional observations from a re-analysis of the deposited data

How the results depend on the processing

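No alternative made any of the 7 tested interferon response genes pass the adjusted p in DEHP minus vehicle, the one that takes the 12 arrays as independent included, although that one called 2121 of 15831 genes. Leaving out each mouse in turn called 0 genes in every fit, moved the median of the 7 genes from -0.20 to 0.29, and moved the differences from -0.15 to 0.26 for Stat2, -0.16 to 0.40 for Irf1, -0.67 to 0.32 for Irf9, -0.084 to 0.29 for Ifit1, -0.54 to 0.72 for Ifit3, -0.76 to 0.50 for Ifih1 and -0.20 to 0.23 for Psmb8; a lone DEHP mouse was given the spread of the vehicle mice. On slide 3 alone the median was -0.35, and Irf1 turned to -0.32, Ifit1 to -0.031 and Ifit3 to -0.43. Ifih1 and Psmb8 turned to 0.020 and 0.13 on slide 1 alone and to 0.052 and 0.33 on slide 2 alone, where Stat2 was at -0.0025; slides 1 and 2 each hold 1 dye orientation, so these values also hold the dye effect. Psmb8 was 0.081 and Ifit1 0.51 with the scanner software's processed signals. With median centring, 4 in place of 7 genes passed between DEHP mice 4 and 1, and between vehicle mice 1 and 4 Stat2 passed as well (-0.32, adjusted p = 0.0159). Between vehicle mice 2 and 4 Stat2 then no longer passed (0.23, adjusted p = 0.0916), Irf9 turned to -0.063 and Ifit1 to -0.036. With loess but without slide 3, 6 passed between DEHP mice 4 and 1 (Psmb8 -0.26, adjusted p = 0.0651). The cause of these shifts was not tested. A dye effect for each slide could not be fitted.

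With the replicate number as a block, 0 genes passed (14 at an unadjusted p under 0.05, against 136 without it) and the median of the 7 genes was 0.02. Over all genes, the deviations of mice of the same number from their group means had r of -0.73 for number 1 and -0.56 for number 4. With 2 DEHP mice, the deviation of 1 is the negative of the other, so these r values are not independent. They cannot decide whether the numbers pair the mice. The 2 and 3 mice limit every group difference, and for Irf7, Ifit2 and the second probes of 4 genes so does signal that was not well above background.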
